A study of Mus musculus with 18 samples.

Results

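The response to CpG DNA differed in 177 genes between splenic B cells whose TLR9 carries the TIR domain of TLR7, called Tlr997, and cells with an unaltered TLR9, called Tlr9het. In Tlr997, the change with CpG was lower in 98 genes and higher in 79 genes than in Tlr9het. Of the 177 genes, 67 were rises that were weaker or missing in Tlr997, 64 were falls that were weaker or missing, 27 were falls that were stronger or seen in Tlr997 alone, 13 were rises of that kind, and the other 6 had no CpG response past the threshold in either genotype. The weaker rises included the genes for the cytokines Il12b, Lta, Tnf and Ccl4 and the feedback inhibitors Socs1, Ptpn1 and Tnfaip3. Cd180, a molecule of the B cell surface, fell less in Tlr997, and Ms4a1, which encodes CD20, and the transcription factor Ebf1 fell past the threshold in Tlr9het alone. S1pr1 fell more, Ccl22 rose more, and Ifngr1 fell and Ms4a6c rose past the threshold in Tlr997 alone. The quantity described is the difference of responses, the CpG response (log2 value with CpG minus log2 value without) in Tlr997 minus that in Tlr9het, over the 12 libraries of the series' 18 that belong to these 2 genotypes.

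TLR9 and TLR7 are endosomal receptors of B cells that detect DNA with unmethylated CpG motifs and single-stranded RNA, respectively. Both pass their signal on through a cytoplasmic TIR domain that recruits the adaptor MyD88. From there, kinases activate NF-κB, MAP kinases with AP-1, and interferon regulatory factors. Activated B cells secrete cytokines, induce inhibitors of the same pathways such as A20, the product of Tnfaip3, and SOCS proteins, and shut down many genes of the resting state.

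All 12 libraries came from bead-purified splenic B cells of female MRL/lpr mice, aged 5 to 7 weeks by the labels and 5 weeks by the study's methods, a strain with the Fas lpr mutation that develops lupus-like autoimmunity, and all mice were Tlr7-/-. Tlr997 mice carried a Tlr9 locus in which the coding sequence of the TLR7 TIR domain had been inserted in front of the original one, followed by a stop codon. The original TIR sequence thus remained in the locus untranslated. The controls were Tlr9+/- by the sample titles and by the study's results and figure legend for these libraries. The treatment protocol and the RNA methods give Tlr9-/-, and the titles were followed. The labels do not give the number of Tlr997 alleles per mouse, and elsewhere the study uses the name for homozygous mice, so the number of intact copies and the TIR domain cannot be told apart in these libraries. The study chose heterozygous controls to match the amount of TLR9 protein, which it found equal in B cells of male Tlr9+/- and Tlr997 mice by staining. Protein was not measured in the files used here. By the labels, cells of 3 mice per genotype were kept without stimulus or given CpG, a synthetic oligodeoxynucleotide, at 10 µg/ml for 4 h, which gave 3 libraries in each of the 4 groups. The labels do not say that a replicate number marks the same mouse in both conditions. Stimulated and unstimulated libraries of a genotype may share mice, which the main fit did not take into account. Its p-values reflect the spread between these libraries. It called 177 genes, and a fit with a replicate block within genotype called 329. 

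The values were log2 CPM after quantile normalization, without counts, so the depth of each library is unknown and no counting error can be given. Libraries of a group correlated across genes at a Pearson's r between 0.947 and 0.990, and the pairs with the lowest values, 0.947 and 0.955, held replicate 3 of unstimulated Tlr997. Tlr9 itself (chromosome 9, 106222598 to 106226876, GRCm38) was at 7.48, 7.36 and 7.28 log2 CPM in unstimulated Tlr9het and at 7.04, 7.06 and 7.02 in unstimulated Tlr997. With CpG it was at 8.02, 7.93 and 8.08 in Tlr9het and at 7.55, 7.18 and 7.19 in Tlr997. Tlr9 was lower in every Tlr997 library of each condition, and the difference of its responses was -0.36 (SE 0.13, limma adjusted p 0.18). Tlr7 (chromosome X, 167303380 to 167330574) was higher in Tlr997 in both conditions, where reads of the inserted TIR sequence may be counted, and the difference of its responses was -0.68 (SE 0.24, limma adjusted p 0.18).

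To find genes whose response depended on the genotype, the difference of responses was tested in 11494 genes with limma. Genes with an absolute difference over 0.5 on the log2 scale were called where the p-value, adjusted by Benjamini-Hochberg, was under 0.05. The 79 genes called higher in Tlr997 made up 0.687% of those tested, and the 98 called lower made up 0.853%. The unadjusted p was under 0.05 for 1839 genes. Over all tested genes the median difference was 0.01. The total depended on single libraries and was 292 without replicate 3 of unstimulated Tlr997. Without replicate 1 of unstimulated Tlr9het it was 87, and without replicate 1, 2 or 3 of Tlr9het with CpG it was 101, 100 and 90. Of the 177 genes, 76 were called in each of the 12 fits that left out 1 library.

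Each called gene was assigned to a class by the responses of both genotypes, called at the same thresholds. A rise had at least 1 response called higher and none called lower, and a fall the reverse. In 171 of the 177 genes 1 of the 4 classes applied, no gene rose in 1 genotype and fell in the other by call, and 6 had no called response. In 131 of the 171 genes (76.6%) the response was the weaker one in Tlr997. This share was between 73.3% and 81.2% when each library was left out in turn. Among all 3869 tested genes that rose in at least 1 genotype, called differences or not, 2420 (62.5%) rose less in Tlr997, with a median difference of -0.08. Of the 3512 genes that fell, 2276 (64.8%) fell less, with a median difference of 0.12.

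**Figure D1:**
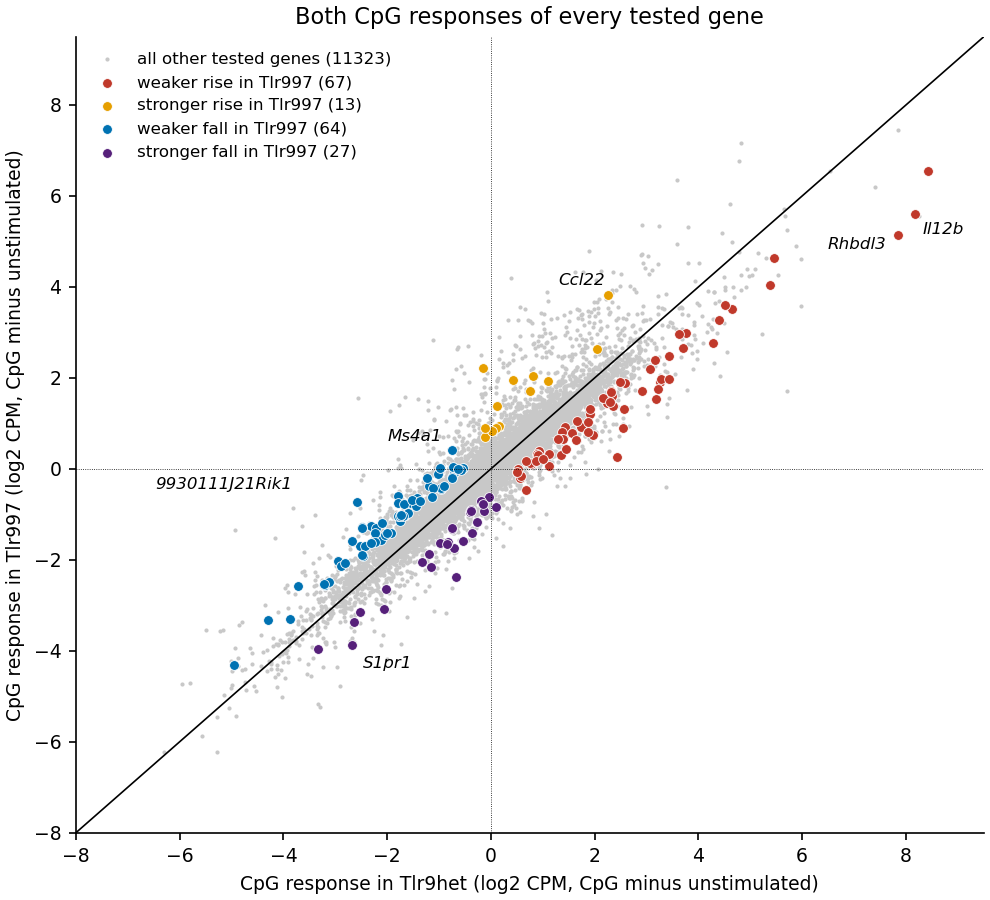
CpG response of each tested gene in Tlr9het (x axis) and Tlr997 (y axis), as log2 CPM with CpG minus unstimulated, each the difference of the means of 3 libraries. Coloured points are the genes of the 4 classes, grey points all 11323 others, and the line marks equal responses. The 67 weaker rises lie below the line on the right, with Il12b and Rhbdl3 near the far end, and the 64 weaker falls lie above it on the left.

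How much of the response was left was summarized by class. Of the 67 weaker rises, 47 were called in both genotypes and 20 in Tlr9het alone. The median rise of the class was 2.16 in Tlr9het and 1.2 in Tlr997. In the 47 genes called in both, the log2 response in Tlr997 amounted to a median of 64.6% of that in Tlr9het, with a range from 34.9% to 84.9%. Weaker falls gave similar values, with 48 of 64 called in both genotypes, medians of -1.79 in Tlr9het and -1.03 in Tlr997, and a median of 64.2% in those called in both. Of the stronger rises 8 of 13, and of the stronger falls 10 of 27, were called in Tlr997 alone. That such genes were called in Tlr9het in the weaker classes and in Tlr997 in the stronger ones follows from how the classes are defined. Because the difference of responses selected these genes, these values describe the classes and were not tested.

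A difference of responses can come from the level before stimulation or from the level with CpG. With CpG, the libraries of the genotypes did not overlap for 64 of the 67 weaker rises, for 13 of the 13 stronger rises, for 64 of the 64 weaker falls and for 27 of the 27 stronger falls. Over all tested genes this was the case for 30.0%. Without stimulation they did not overlap for 35, 5, 12 and 4 genes of these classes, beside 13.6% of all tested genes. The share was thus 52.2% in weaker rises and 14.8% in stronger falls. In weaker rises, the unstimulated level was higher in Tlr997 by a median of 0.26, against -0.24 in stronger rises, -0.10 in weaker falls and 0.03 in stronger falls. The gap with CpG was the larger one in 58 of 67 weaker rises and in 62 of 64 weaker falls. Because the genes were selected on the difference of these gaps, all of these counts are descriptions and do not show at which level the genotypes differ.

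**Figure D2:**
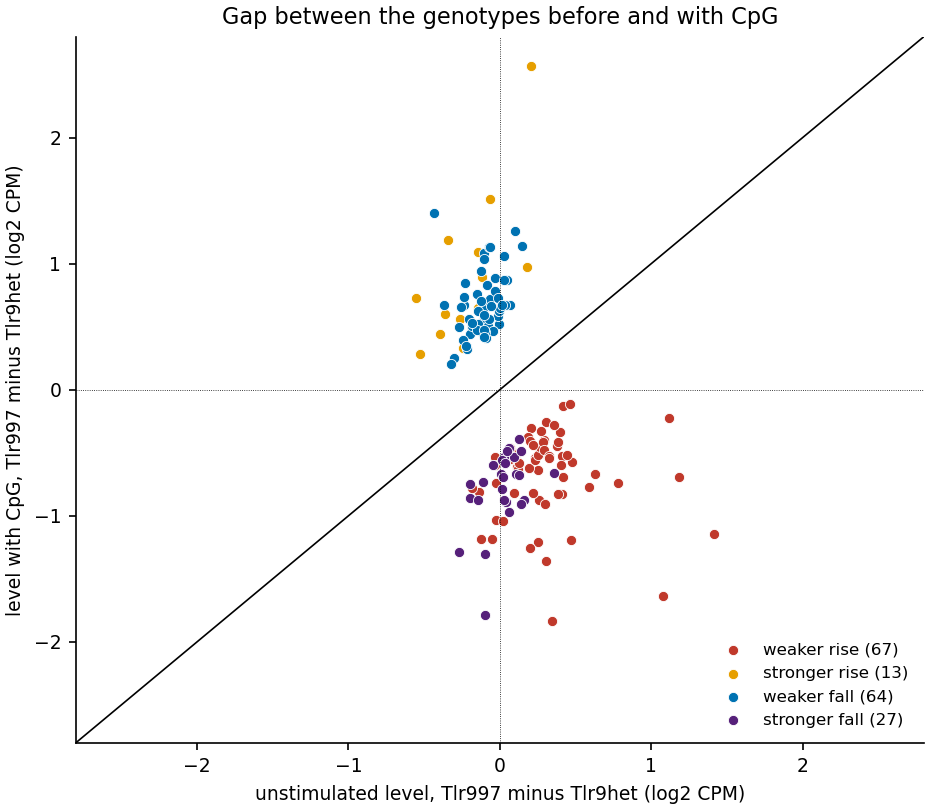
Gap between the genotypes (Tlr997 minus Tlr9het, log2 CPM, means of 3 libraries) in unstimulated cells on the x axis and with CpG on the y axis, 1 point per gene of the 4 classes. Falls lie close to 0 on the x axis, while many weaker rises lie to the right of it, so that their unstimulated level was higher in Tlr997, and the line marks equal gaps.

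Several cytokine genes rose less in Tlr997. Il12b, which encodes the p40 chain shared by IL-12 and IL-23, was at -0.18, -0.77 and 0.04 log2 CPM in unstimulated Tlr9het libraries and reached 7.73, 7.87 and 8.01 with CpG. In Tlr997 it went from 1.10, 0.43 and 1.81 to 6.73, 6.80 and 6.65. The genotypes did not overlap in either condition, with higher values in Tlr997 before and lower values after stimulation, and the rise was 289-fold in Tlr9het and 48.9-fold in Tlr997. Tlr997 minus Tlr9het was 1.42 without and -1.15 with CpG, so these folds depend on low unstimulated values. Ccl4, a chemokine for T cells and monocytes (chromosome 11, 83648624 to 83664683), rose to 8.56, 8.54 and 8.61 in Tlr9het and to 7.97, 8.21 and 7.94 in Tlr997. Its unstimulated level was 5.13 ± 0.21 in Tlr9het and 5.55 ± 0.22 in Tlr997 (mean ± SD of 3 libraries), and the difference of responses was -0.94 (SE 0.17, limma adjusted p 0.012). Tnf and its neighbor Lta, both ligands of TNF receptors, lie side by side on chromosome 17 (35199367 to 35202007 and 35203165 to 35205578). Tnf rose to 6.58, 6.43 and 6.55 in Tlr9het and to 6.15, 5.89 and 5.79 in Tlr997, from values between 4.10 and 4.33 in all 6 unstimulated libraries. For Lta, the rise was to 5.33 ± 0.09 in Tlr9het and 4.43 ± 0.12 in Tlr997 (mean ± SD of 3 libraries). Both genes were thus lower in every Tlr997 library with CpG. The difference was -0.62 for Tnf (SE 0.13, limma adjusted p 0.035), and Lta rose 7.49-fold in Tlr9het and 3.26-fold in Tlr997 (limma adjusted p 0.031), and each was called in only 4 of the 12 fits that left out 1 library. Over the list of 34 tested cytokine and chemokine ligands, 4 were called lower and 1 higher, 14.7% in all. Of all tested genes, 0.853% were called lower and 0.687% higher. The list's median difference was -0.06 and turned positive, to at most 0.06, when single libraries were left out. Il6, at -0.54 (limma adjusted p 0.67), Il10, at -0.27 (0.82), and Ccl3, at -0.76 (0.084), did not pass the test.

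Inhibitors of cytokine and NF-κB signaling were among the weaker rises too. Ptpn1, a tyrosine phosphatase that acts on JAK kinases (chromosome 2, 167930750 to 167979385), was at 7.91 ± 0.16 in unstimulated Tlr9het (SD, n = 3) and at 7.86, 8.01 and 7.80 in unstimulated Tlr997. With CpG it reached 9.34, 9.31 and 9.47 in Tlr9het, but 8.19, 8.28 and 8.54 in Tlr997. The genotypes overlapped before stimulation and not after it, with a difference of responses of -1.01 (SE 0.14, limma adjusted p 0.0028). Socs1, which blocks JAK kinases (chromosome 16, 10783808 to 10785536), reached 4.75, 4.82 and 4.99 in Tlr9het and 3.89, 4.28 and 3.91 in Tlr997. One of its unstimulated Tlr9het libraries, replicate 1, was low at 1.76, with the other two at 2.50 and 2.61 and the Tlr997 libraries between 2.64 and 2.83. The difference was -1.24 (SE 0.28, limma adjusted p 0.043), and it was called in 3 of the 12 fits that left out 1 library, with values between -1.40 and -0.97. Tnfaip3, whose product A20 removes ubiquitin chains that activate NF-κB (chromosome 10, 19000910 to 19015410), was at 7.17 ± 0.02 without and 9.49 ± 0.06 with CpG in Tlr9het, against 7.29 ± 0.08 and 8.99 ± 0.09 in Tlr997 (mean ± SD of 3 libraries). Its difference of -0.62 (SE 0.08, limma adjusted p 0.0022) was called in all 12 of these fits. Pdlim1, a scaffold protein with PDZ and LIM domains, reached 4.41, 4.44 and 4.48 in Tlr9het but 3.75, 3.56 and 3.57 in Tlr997.

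Among the 25 tested SOCS, JAK and STAT genes, 2 were called lower, Socs1 and Ptpn1, and 2 higher, Stat5a and Stat5b. They made up 16% of the list, beside 0.853% of all tested genes called lower and 0.687% called higher. Socs3 just missed the threshold, with a difference of -1.27 (limma adjusted p 0.060). For Stat5a the response was 2.05 in Tlr9het and 2.63 in Tlr997, but its call was kept in only 1 of the 12 fits. Of 32 NF-κB subunits, inhibitors and targets, 1 was lower (Tnfaip3) and 1 higher (Birc2, a ubiquitin ligase), 6.25% in all. Their median difference was -0.16, with 25 genes under 0, and 21 of the 32 were called higher with CpG in Tlr9het. Of all tested genes that rose in at least 1 genotype, 62.5% rose less in Tlr997, with a median difference of -0.08. The 11 regulatory genes that the study named had a median of -0.95 and 5 called lower, namely Socs1, Ptpn1, Pdlim1, S1pr1 and Runx1. That list was chosen by the study on these libraries, so its direction is not independent evidence.

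Other weaker rises belonged to no such pathway. Rhbdl3, a member of the rhomboid family of intramembrane proteases (chromosome 11, 80300471 to 80355986), was higher in Tlr997 before and lower after stimulation, with unstimulated values of -0.60, -0.09 and -1.37 in Tlr9het and 0.28, 0.13 and 0.75 in Tlr997. With CpG it was at 7.16 ± 0.21 and 5.52 ± 0.18 (mean ± SD of 3 libraries). Htra4, a serine protease (chromosome 8, 25024928 to 25038962), rose to 5.22, 5.50 and 5.05 in Tlr9het and to 4.11, 3.86 and 4.04 in Tlr997, from unstimulated values that overlapped. The difference was -1.46 (SE 0.25, limma adjusted p 0.0093). Lag3, an inhibitory receptor that binds MHC class II, reached 5.36, 4.96 and 5.31 in Tlr9het and 3.92, 4.09 and 4.04 in Tlr997. It was the only called gene among 22 tested inhibitory receptors. Ctla4, with a difference of -1.63 (limma adjusted p 0.19), was not called.

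Activation and growth genes were also among the weaker rises. Slamf1 (CD150), a costimulatory receptor, rose to 8.02, 8.09 and 8.36 in Tlr9het and to 7.17, 7.18 and 7.49 in Tlr997, and its responses differed by -1.14 (SE 0.19, limma adjusted p 0.0093). Batf, an AP-1 factor required for class switching, was at 3.40 ± 0.14 without and 8.86 ± 0.14 with CpG in Tlr9het, against 3.71 ± 0.23 and 8.35 ± 0.08 in Tlr997 (mean ± SD of 3 libraries). Its call was lost without replicate 3 of Tlr9het with CpG, where the difference was still within the range of -0.91 to -0.70 over the 12 fits. For Ccnd2, the gene for cyclin D2, the rise was 12.3-fold in Tlr9het and 7.83-fold in Tlr997 (difference -0.65, SE 0.10, limma adjusted p 0.0044), and for Hk2, encoding the glycolytic enzyme hexokinase 2, it was 13.6-fold and 7.99-fold (difference -0.77, SE 0.15, limma adjusted p 0.024, called in 7 of the 12 fits). Most immediate early and MAP kinase feedback genes had a negative difference too, which for genes that fell means a stronger fall and not a weaker response. Of 33 tested, 28 had a negative difference, with a median of -0.32 beside 0.01 for all genes and -0.08 for all genes that rose. In Tlr9het, 17 genes of this list were called higher with CpG and 9 lower. The list's median stayed between -0.34 and -0.27 when single libraries were left out. Of the 33 genes, 3 were called lower (9.09%), Batf, Nr4a3 and Dusp2, beside 0.853% of all genes. Jun, a subunit of AP-1, was at 10.67, 10.46 and 10.54 with CpG in Tlr9het and at 9.84, 9.62 and 9.88 in Tlr997, and its difference of -0.91 was just outside the threshold (limma adjusted p 0.051).

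Among the weaker falls were genes of the B cell surface and of B cell identity. Ebf1, a transcription factor that specifies the B lineage (chromosome 11, 44618100 to 45008096), was at 8.10, 8.11 and 8.09 in unstimulated Tlr9het and at 8.12, 8.03 and 8.07 in unstimulated Tlr997. With CpG it fell to 6.94, 6.90 and 6.87 in Tlr9het, but was at 7.70, 7.68 and 7.68 in Tlr997. The genotypes overlapped before stimulation and not after it, and the responses differed by 0.81 (SE 0.06, limma adjusted p 3.8e-05). Ms4a1, which encodes CD20 (chromosome 19, 11249679 to 11266149), fell from 10.16, 10.00 and 10.00 to 9.26, 9.34 and 9.32 in Tlr9het. In Tlr997 it was at 10.13, 10.08 and 10.26 without and at 10.64, 10.47 and 10.59 with CpG. Here every stimulated Tlr997 library was above every unstimulated one, while in Tlr9het every stimulated library was below. The responses were -0.75 and 0.41, and the difference was 1.16 (SE 0.09, limma adjusted p 3.8e-05). Cd180, a TLR homolog on the B cell surface also called RP105 (chromosome 13, 102693547 to 102706631), was at 7.23 ± 0.03 without and 4.75 ± 0.01 with CpG in Tlr9het, against 7.16 ± 0.16 and 5.89 ± 0.11 in Tlr997 (mean ± SD of 3 libraries). This was a 5.56-fold fall in Tlr9het and a 2.41-fold fall in Tlr997, which differed by 1.21 (SE 0.11, limma adjusted p 1.5e-04).

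Cd79b, a signaling chain of the B cell receptor, fell from 10.98, 10.74 and 10.96 to 7.07, 7.22 and 7.22 in Tlr9het and from 10.91, 10.70 and 10.77 to 8.69, 7.87 and 8.06 in Tlr997. Replicate 1 of Tlr997 with CpG was the highest, and the difference of 1.14 (SE 0.22, limma adjusted p 0.021) was not called when replicate 1 of unstimulated Tlr9het or any of the Tlr9het libraries with CpG was left out. Its partner Cd79a fell to 7.66, 7.74 and 7.61 in Tlr9het and to 7.97, 7.49 and 7.67 in Tlr997, with overlapping libraries. Of the 29 tested B cell and plasma cell identity genes, 2 were weaker falls, Ebf1 and Tcf4, and 3 were stronger falls, Runx1, Pou2af1 and Foxo1. They made up 17.2% of the list, beside 0.687% of all tested genes called higher and 0.853% called lower. The list's median was -0.07, with 21 of 29 genes under 0.

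Some signaling genes of this class are named after their values were seen. Btk and Syk, kinases that act downstream of the B cell receptor, fell by 3.22 and 2.43 in Tlr9het and by 2.52 and 1.69 in Tlr997. Inpp5d, encoding the phosphatase SHIP1, responded by -4.94 in Tlr9het and by -4.30 in Tlr997. The phosphodiesterases Pde7a and Pde3b, which break down cAMP, were the 2 called genes of 18 tested in cAMP and G protein control. They made up 11.1% of that list, beside 0.687% of all tested genes called higher. Pde7a fell from 7.96, 7.88 and 7.87 to 6.92, 6.96 and 6.78 in Tlr9het, while in Tlr997 it was at 7.91, 7.85 and 7.84 without and at 7.71, 7.71 and 7.88 with CpG. Its Tlr997 libraries overlapped between the conditions, and the difference was 0.92 (SE 0.09, limma adjusted p 2.1e-04). Irf5, an interferon regulatory factor activated by TLRs, had a difference of 0.51 (SE 0.10, limma adjusted p 0.017, called in 7 of 12 fits). With Cd180 it was called among 35 tested genes of endosomal TLR signaling (5.71%), whose median was 0.07.

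The summed level of B cell markers moved with this class. Summed over the 8 markers of the B cell list, log2 CPM was between 12.7 and 12.9 in the 6 unstimulated libraries. With CpG it was between 10.85 and 10.90 in Tlr9het and between 11.46 and 11.72 in Tlr997, without overlap, and 2 of the 8 genes, Ms4a1 and Cd79b, were called. Without these genes, the sum of the other 6 was between 10.07 and 10.13 in Tlr9het and between 10.18 and 10.42 in Tlr997. With CpG, Cd79a, Blk, Fcrla and Pax5 overlapped between the genotypes. In bulk RNA, a smaller share of B cells and less RNA per B cell cannot be told apart. Sums of other lists with CpG overlapped between the genotypes for T cell (3.6 to 4.7 in Tlr997 and 3.8 to 5.0 in Tlr9het), macrophage and monocyte (6.9 to 8.0 and 7.5 to 7.8), neutrophil (5.2 to 7.0 and 5.6 to 6.5), dendritic cell (6.2 to 6.5 and 6.2 to 6.4), NK cell (3.4 to 3.8 and 3.3 to 4.7), erythroid (7.1 to 11.4 and 6.8 to 9.4), plasma cell (8.3 to 8.6 and 8.2 to 8.8) and marginal zone B cell markers (8.4 to 8.6 and 8.4 to 8.5). The sum of age-associated B cell markers did not overlap, at 8.47 to 8.61 in Tlr997 and 8.64 to 8.69 in Tlr9het. However, each single marker of that list overlapped between the genotypes with CpG. Some single markers of the other lists did not overlap with CpG, which held for 30.0% of all tested genes. Higher in every Tlr997 library were Cr2, Dtx1 and S1pr3 (marginal zone), Mzb1 and Derl3 (plasma cell) and Flt3 (dendritic cell). Lower in each were Cd9 and Plac8 (marginal zone), Prdm1 (plasma cell), Siglech (dendritic cell) and Cd8a (T cell). Overlap of a sum thus does not mean that its markers were alike. The part of these markers in the differences was not tested.

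**Figure D3:**
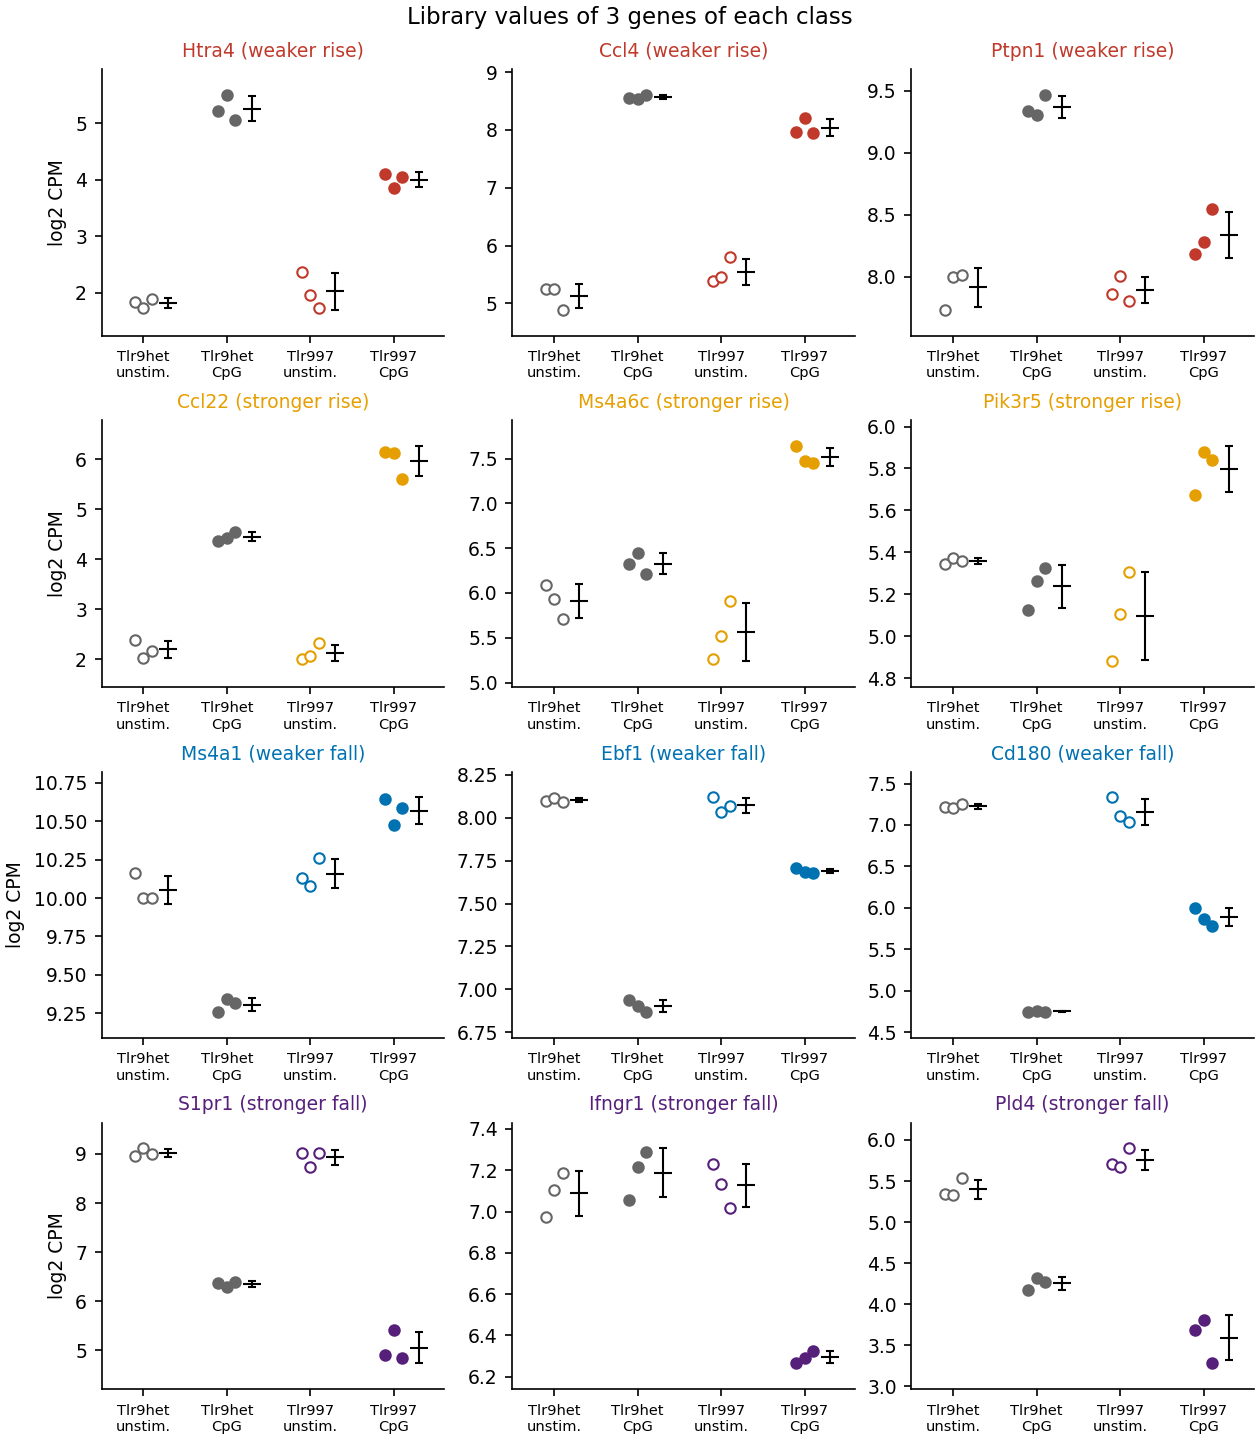
Values of 3 genes of each class in the 12 libraries, in log2 CPM. Open circles are unstimulated and filled circles CpG-stimulated libraries, grey for Tlr9het and coloured for Tlr997, with the mean and SD of 3 libraries beside each group, and the y axes differ and do not start at 0. With CpG, the genotypes are apart in all 12 genes, whereas for Htra4, Ptpn1, Ccl22, Ms4a6c, Ms4a1, Ebf1, Cd180, S1pr1 and Ifngr1 their unstimulated libraries overlap.

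Most interferon-inducible genes had a positive difference, whether their response was a rise or a fall. Of 59 tested type I interferon response genes, 55 were above 0, beside 5943 of all 11494 tested genes, with a median of 0.48 that stayed between 0.37 and 0.68 when single libraries were left out. Called were 3 (5.08%), Samd9l, Stat2 and Ifi203, all higher and all as weaker falls, beside 0.687% of all genes called higher. In Tlr9het 12 genes of the list rose with CpG and 22 fell, against 21 and 12 in Tlr997. For 13 genes the response was negative in Tlr9het and positive in Tlr997, and for 0 the reverse. With CpG, 54 of the 59 genes were at a higher level in Tlr997, while without it 27 were. Unstimulated libraries varied widely on this list. Its median level was 6.29, 6.28 and 5.43 log2 CPM in the Tlr9het libraries and between 5.79 and 6.23 in Tlr997, with replicate 3 of Tlr9het the lowest. With CpG the values were 5.74, 5.69 and 5.82 in Tlr9het and 6.62, 6.71 and 6.11 in Tlr997, which did not overlap.

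Single genes of this list differed in their spread. Samd9l, an interferon-inducible gene that restrains cell growth (chromosome 6, 3372257 to 3399571), fell from 9.05, 8.94 and 8.70 to 6.08, 6.33 and 6.26 in Tlr9het and from 8.58, 8.56 and 8.87 to 7.12, 7.07 and 7.03 in Tlr997. The difference of 1.08 (SE 0.14, limma adjusted p 0.0021) was called in all 12 fits. Stat2, a subunit of the interferon-activated complex ISGF3 (chromosome 10, 128270498 to 128292853), fell to 6.25 ± 0.05 in Tlr9het and to 6.98 ± 0.09 in Tlr997 (mean ± SD of 3 libraries), and the difference of 0.79 (SE 0.16, limma adjusted p 0.022) was called in 6 of the 12 fits. Mx1, an antiviral GTPase, was at 6.15, 5.96 and 6.19 with CpG in Tlr9het and at 7.03, 7.21 and 6.96 in Tlr997. Its unstimulated values were 6.66, 6.62 and 5.43 in Tlr9het and 5.57, 6.42 and 6.52 in Tlr997, so the stimulated libraries did not overlap and the unstimulated ones did. Its difference of 1.04 had an SE of 0.41 and was not called (limma adjusted p 0.24). Isg15, at -0.08, and Rsad2, at -0.14, were among the 4 genes with a negative difference.

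Of 19 interferon-inducible GTPases, 17 had a positive difference, with a median of 0.43, and 1 was called. This was 9930111J21Rik1, a predicted member of the family (chromosome 11, 48946150 to 48979381). It fell from 6.10, 5.87 and 5.45 to 3.35, 2.98 and 3.38 in Tlr9het, and from 5.36, 5.75 and 5.00 to 4.58, 4.71 and 4.63 in Tlr997. The CpG libraries were apart by over 1, while the unstimulated ones overlapped. The similar neighboring gene 9930111J21Rik2 had a difference of 1.23 that was not called (limma adjusted p 0.43), and how reads were divided between them is not known.

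The promoters of the classes were searched for the core of the interferon-stimulated response element (ISRE, GAAANNGAA, both strands), bound by ISGF3 and interferon regulatory factors. RefSeq promoters of 300 bases (250 before and 50 from the start of transcription on, GRCm38.p6) were given for 9201 of the 11494 tested genes. The motif was found in 13 of 82 promoters of weaker falls (15.9%), 8 of 68 of weaker rises (11.8%), 1 of 14 of stronger rises (7.14%) and 1 of 29 of stronger falls (3.45%), beside 843 of 11703 promoters of all tested genes (7.2%). In the interferon lists it was in 38 of 68 promoters (55.9%). A STAT motif (TTCNNNGAA) was in 8 of 82 promoters of weaker falls (9.76%), 4 of 29 of stronger falls (13.8%), 1 of 68 of weaker rises (1.47%), 0 of 14 of stronger rises and 7.08% of all. The κB motif (GGGANTTCC) was in 1 of 68 promoters of weaker rises (1.47%), that of Tnfaip3, in 1 of 82 of weaker falls (1.22%), in none of the other classes and in 2.47% of all. The AP-1 motif (TGANTCA) was in 4 promoters of weaker rises (5.88%), 7 of weaker falls (8.54%) and 4.99% of all, and in none of the stronger rises or stronger falls. The promoters belonged to 51 genes of weaker rises, 11 of stronger rises, 52 of weaker falls and 22 of stronger falls. Promoters of 1 gene can overlap, so that 1 site can be counted more than once, as for a STAT match of Fam111a and an AP-1 match of Ifi203. Motifs may overlap each other, and a match only says that the letters are present. Windows of 30 bases around the match are given for 5 genes described in this text, to show the element in weaker falls (9930111J21Rik1, Samd9l, Stat2) and in a weaker rise (Socs1), and the κB match of Tnfaip3. They are written 5′ to 3′ on the strand of the gene, from RefSeq (GRCm38.p6), with the matched letters in capitals.
9930111J21Rik1 (chr11:48979337-48979366, minus strand): acagaggtctgGAAATAGAAactaaatctt
Samd9l (chr6:3399522-3399551, minus strand): gtatcagaatcgaaactgGAAACTGAAgca
Stat2 (chr10:128270266-128270295, plus strand): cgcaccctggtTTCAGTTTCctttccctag
Socs1 (chr16:10785598-10785627, minus strand): acttgccgGAAAGAGAAACCGAAagcgggg
Tnfaip3 (chr10:19015404-19015433, minus strand): gaatttccatcGGAAATCCCcctgttggca
In Socs1 2 matches overlapped and began 83 bases before the start, and in Stat2 the match lay 221 bases before it on the opposite strand. Those of 9930111J21Rik1 and Samd9l lay 27 and 39 bases after the start.

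Rises that were stronger in Tlr997 were few. Ccl22, a chemokine that attracts cells with the receptor CCR4 (chromosome 8, 94745684 to 94751388), was at 2.38, 2.03 and 2.17 in unstimulated Tlr9het and 2.01, 2.06 and 2.31 in unstimulated Tlr997. It rose to 4.37, 4.42 and 4.54 in Tlr9het and to 6.13, 6.13 and 5.61 in Tlr997, that is 4.76-fold and 14.2-fold. Even the lowest stimulated Tlr997 library was over 1 above the highest of Tlr9het. Pik3r5, a regulatory subunit of phosphoinositide 3-kinase γ (chromosome 11, 68432125 to 68497849), was at 5.13, 5.26 and 5.33 with CpG in Tlr9het and at 5.67, 5.88 and 5.84 in Tlr997, and its responses of -0.12 and 0.70 differed by 0.82 (SE 0.14, limma adjusted p 0.012). The extracellular matrix gene Nid1, the semaphorin receptor Plxna3, the Cdc42 activator Dock9 and the mitochondrial carrier Sfxn2 had differences between 0.96 and 1.28, and each was called in 2 to 5 of the 12 fits. Trpm5, a cation channel with an average below 0 log2 CPM, had the largest difference of the class, at 2.36, and was called in 1 of them.

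Genes of the Ms4a family, which encode 4-pass membrane proteins and lie together on chromosome 19, shared a direction across classes. All 8 tested members had a positive difference, with a median of 0.68 and a range of this median from 0.42 to 0.77 when single libraries were left out, and 4 were called beside 0.687% of all genes. Ms4a6c (11469353 to 11487182) was at 6.09, 5.93 and 5.71 without and 6.33, 6.45 and 6.21 with CpG in Tlr9het. In Tlr997 it rose from 5.27, 5.52 and 5.91 to 7.64, 7.47 and 7.45. The rise of 1.95 in Tlr997 stood against 0.42 in Tlr9het, and the stimulated libraries of the genotypes did not overlap. Ms4a4c (11404717 to 11427246) had responses of 0.10 and 0.89, a difference of 0.79 (SE 0.14, limma adjusted p 0.011). Ms4a6b responded by -0.44 and 0.31 (difference 0.75, SE 0.16, limma adjusted p 0.029, called in 6 of 12 fits), and Ms4a1 is described above. The others, Ms4a3, Ms4a4b, Ms4a6d and Ms4a7, had differences between 0.06 and 0.60 and were not called. Members of the family are similar in sequence, and the division of reads among them is not known.

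Falls that were stronger in Tlr997 included receptors. S1pr1, the receptor for sphingosine 1-phosphate that guides lymphocytes out of tissues (chromosome 3, 115710433 to 115715055), was between 8.95 and 9.11 in unstimulated Tlr9het and between 8.74 and 9.03 in unstimulated Tlr997. It fell to 6.38, 6.28 and 6.40 in Tlr9het and to 4.90, 5.41 and 4.85 in Tlr997, a 6.36-fold and a 14.7-fold decrease. The difference was -1.21 (SE 0.18, limma adjusted p 0.0041), and S1pr1 was the only called gene of 18 tested chemokine and lipid receptors. Ifngr1, the ligand-binding chain of the interferon-γ receptor (chromosome 10, 19591949 to 19610229), was between 6.97 and 7.19 without and at 7.06, 7.22 and 7.29 with CpG in Tlr9het. In Tlr997 it fell from 7.23, 7.13 and 7.02 to 6.27, 6.29 and 6.33. The 3 other groups overlapped, and only the stimulated Tlr997 libraries lay below them, and the responses differed by -0.93 (SE 0.11, limma adjusted p 9.6e-04). Il10ra, a chain of the interleukin-10 receptor that was named after its value was seen, fell by 0.85 in Tlr9het and by 1.65 in Tlr997 (difference -0.80, SE 0.09, limma adjusted p 9.7e-04).

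Pld4, an exonuclease of endolysosomes that degrades single-stranded nucleic acids (chromosome 12, 112760446 to 112768986), fell from 5.34, 5.32 and 5.53 to 4.17, 4.31 and 4.28 in Tlr9het and from 5.70, 5.67 and 5.90 to 3.69, 3.81 and 3.28 in Tlr997. Its libraries did not overlap in either condition, with Tlr997 higher before and lower after stimulation, and the difference was -1.02 (SE 0.18, limma adjusted p 0.012). Ttc7, a tetratricopeptide repeat protein, responded by -0.37 in Tlr9het and by -1.40 in Tlr997. Kctd12, an auxiliary subunit of GABA-B receptors, fell 4.16-fold in Tlr9het and 8.48-fold in Tlr997. Ell3, an elongation factor of RNA polymerase II, fell by 0.72 in Tlr9het and by 1.74 in Tlr997, and 5031414D18Rik (now Rubcnl, an autophagy regulator) responded by -0.27 and fell by 1.17. Cd38, an ectoenzyme of the B cell surface, fell by 0.82 and by 1.60 (difference -0.78, SE 0.11, limma adjusted p 0.0028). All of these were called in each of the 12 fits. Foxo1, a transcription factor of resting lymphocytes, was at 8.19 ± 0.03 with CpG in Tlr9het (SD, n = 3) and at 7.68, 7.55 and 7.67 in Tlr997, and the difference of -0.57 (SE 0.10, limma adjusted p 0.0088) was lost without replicate 1 of unstimulated Tlr997. Ptpn22, a phosphatase that dampens antigen receptor signals, had a difference of -1.05 (SE 0.22, limma adjusted p 0.030) and was called in 5 of the 12 fits.

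In 21 of the 177 genes, the responses of the genotypes had opposite signs. Of these, 7 were weaker rises, 4 weaker falls, 3 stronger rises and 1 a stronger fall, and the other 6 were the genes with no called response. Ptms, a small acidic nuclear protein named after its values were seen, rose by 0.67 in Tlr9het and responded by -0.46 in Tlr997 (difference -1.13, SE 0.16, limma adjusted p 0.0033). St14, the membrane protease matriptase (chromosome 9, 31088590 to 31131811), was at 5.52, 5.45 and 5.76 without and 5.89, 5.93 and 6.04 with CpG in Tlr9het. In Tlr997 it was at 5.73, 5.75 and 5.95 without and 5.33, 5.46 and 5.21 with CpG. The libraries with CpG were all above those without in Tlr9het and all below in Tlr997, though neither response was called, and the difference was -0.86 (SE 0.14, limma adjusted p 0.0067).

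Of the 177 genes, 16 weaker rises, 14 weaker falls, 5 stronger rises, 5 stronger falls and 1 gene with no called response belonged to any of the 19 lists. Across all lists, those above and the others here, counts stand beside the 0.687% of all tested genes called higher and 0.853% called lower. None of 34 ribosome biogenesis genes was called, although all 34 rose in both genotypes, with medians of 1.77 in Tlr9het and 1.68 in Tlr997 and a median difference of -0.11. Of 26 cholesterol synthesis genes none was called, and 23 had a positive difference, with a median of 0.23. Among 39 cell cycle genes 1 was called lower (Ccnd2) and 1 higher (Rbl1), 5.13% in all, with a median of 0.04. Of 19 glycolysis genes 2 were lower (10.5%), Hk2 and the lactate carrier Slc16a1. Amino acid and mitochondrial transporters had 1 called gene of 19 (5.26%), Sfxn2, which was higher, and activation and costimulation surface molecules 2 of 27 (7.41%), Slamf1 and Cd38, which were lower.

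**Figure D4:**
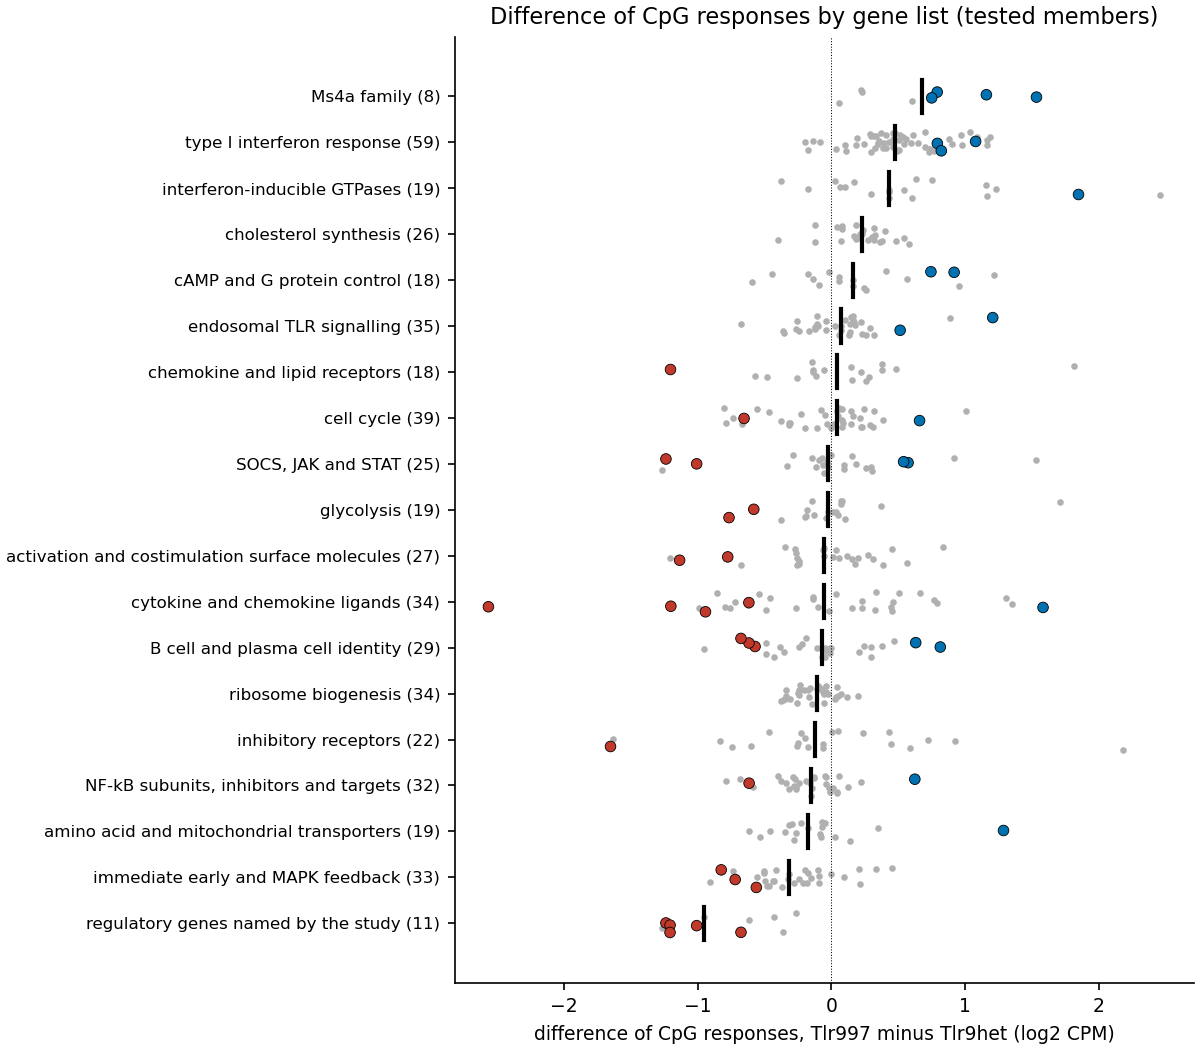
Difference of responses (Tlr997 minus Tlr9het, log2 CPM) of each tested gene in the 19 lists, sorted by list median (black bars), with the number of tested genes in parentheses. Small grey points were not called, and larger points were called lower (red) or higher (blue). The Ms4a and both interferon lists have the highest medians, at 0.68, 0.48 and 0.43, and the regulatory genes named by the study the lowest, at -0.95.

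The genes were then looked up in the separate libraries labelled Tlr779, B cells of male Tlr9-/- mice in which TLR7 carries the TIR domain of TLR9, stimulated with the TLR7 agonist CL097 at 5 µg/ml. Agonist, receptor, genotype and sex all differed from the CpG experiment and cannot be told apart. In these 6 libraries 22.7% of tested genes were called higher with CL097 and 23.6% lower. Of the 67 weaker rises, 59 (88.1%) were higher with CL097, with a median response of 1.64, beside 62.7% of all genes that rose with CpG. Of the 12 tested stronger rises 7 were higher (58.3%), with a median of 0.63. Weaker falls were lower with CL097 in 42 of 64 genes (65.6%) and stronger falls in 16 of 27 (59.3%), beside 67.6% of all genes that fell with CpG. Ccl22, for example, rose by 1.07 with CL097, while Samd9l, at -0.30, and Stat2, at 0.16, were not called. The size of the response, which was large in weaker rises, was not matched in this comparison.

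**Figure D5:**
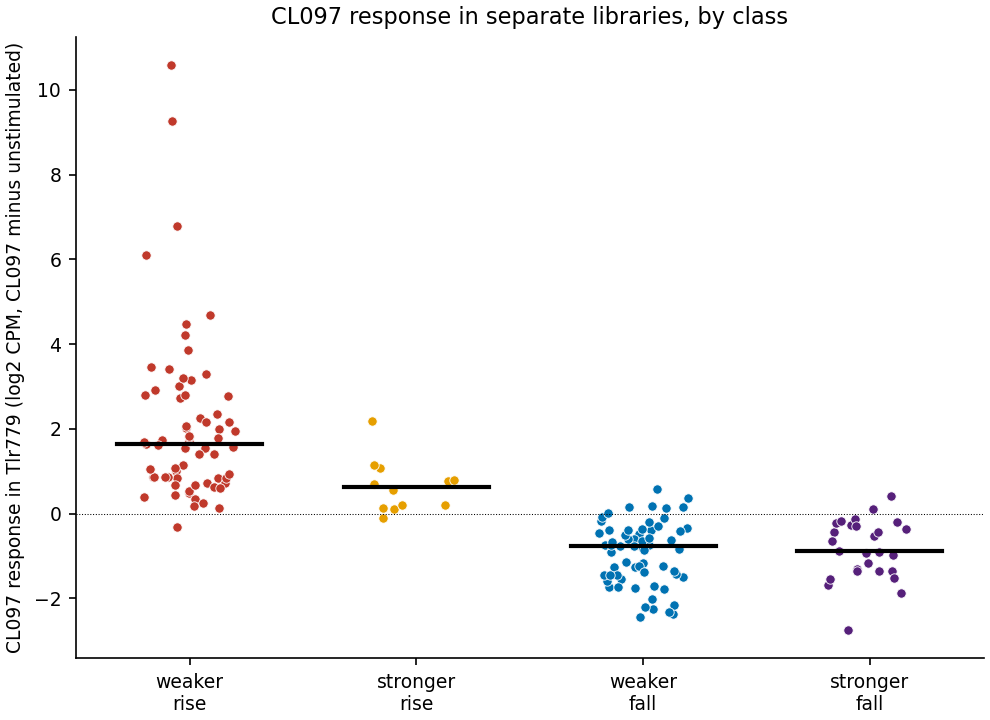
Response to CL097 in the Tlr779 libraries (log2 CPM, CL097 minus unstimulated, 3 libraries each) for the tested genes of the 4 classes, 1 point per gene, with the class median as a black bar. Medians are 1.64 in weaker rises, 0.63 in stronger rises, -0.78 in weaker falls and -0.89 in stronger falls.

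At the threshold, the called genes with the highest adjusted p were Dusp2, Samhd1 and Stat5a, all at 0.049 with differences of -0.56, 0.63 and 0.57. Just outside lay Jun, Havcr1 and Csf2rb, all at 0.051 with -0.91, 0.72 and 0.51. Absolute differences ranged from 0.50 to 2.71 in weaker rises, from 0.57 to 2.36 in stronger rises, from 0.51 to 1.84 in weaker falls and from 0.52 to 1.69 in stronger falls. Mfhas1 and Tiparp, which the naming rule did not include, are given because of their values. Mfhas1, a leucine-rich repeat protein, rose from 5.70, 5.71 and 5.66 to 7.51, 7.52 and 7.63 in Tlr9het and from 5.75, 5.74 and 5.64 to 6.46, 6.55 and 6.53 in Tlr997, a difference of -1.06 (SE 0.08, limma adjusted p 3.8e-05). Tiparp, an ADP-ribosyltransferase, rose by 1.11 in Tlr9het and responded by 0.07 in Tlr997. Fam111a, a protease needed for DNA replication, was at 8.91 ± 0.09 without and 6.42 ± 0.09 with CpG in Tlr9het, against 8.84 ± 0.08 and 7.55 ± 0.06 in Tlr997 (mean ± SD of 3 libraries). It fell 5.61-fold in Tlr9het and 2.44-fold in Tlr997 (limma adjusted p of the difference 3.8e-05).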

How the data were processed

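RNA-seq was done on B cells that had been purified with beads from spleens of MRL/lpr mice. Per the labels and the methods, the authors made stranded mRNA libraries, trimmed reads with Trim Galore 0.6.5 after FastQC 0.11.7, aligned them to mm10 with STAR 2.6.1a and counted them with featureCounts (Subread 2.0.1). The deposited values are log2 CPM, after quantile normalization, voom and limma, in 1 file per library. CPM summed to between 991992 and 1.00441e+06 per library. No counts or library sizes were used here, so intervals for depth are not given, and an offset for each gene and replicate number appears to have been removed from the values. No strand setting of the counting is given in the sources used here, so reads of overlapping genes may not be told apart.

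Of 23420 genes, 11494 with over 0 log2 CPM in at least 3 of the 12 libraries were tested. limma 3.58.1 (R 4.3.3) was fitted with 4 group means and a mean-dependent trend of the variance (8 residual degrees of freedom, median prior 4.79), and p-values were adjusted by Benjamini-Hochberg over all tested genes. The degrees of freedom were not lowered for the offset that appears to have been removed, so p-values may be too small. No pseudocount was added, so changes of low genes are understated by the offset that voom uses. CL097 responses were fitted in the 6 Tlr779 libraries alone. Named were the 8 genes with the largest absolute difference in each class with an average over 2 log2 CPM, called members of the 19 gene lists, both receptors and 3 genes on each side of the threshold. All other genes named, among them list members that were not called, were chosen after their values were seen. Members and lists were chosen with earlier results of these data known. Coordinates and promoters are from RefSeq (GRCm38). Replicate numbers were not taken as pairs, and fits with them as a block, other filters, variance settings and leaving out each library were tried as alternatives. Some genes and sequences are not reported here.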

Additional observations from a re-analysis of the deposited data

Results flagged for a closer look

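Effects of CpG that differed between the genotypes by the test of the difference itself (limma, Benjamini-Hochberg adjusted) are set apart here. The change with CpG was higher in Tlr997 for 79 genes and lower for 98 genes. In 21 of these genes the responses of the genotypes had opposite signs. The unadjusted p was under 0.05 for 1839 of the 11494 tested genes.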

How the results depend on the processing

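With each library left out in turn, 33 to 142 genes were higher and 53 to 150 lower, with 36 to 108 weaker rises, 5 to 19 stronger rises, 28 to 114 weaker falls and 15 to 35 stronger falls. In the order higher, lower, weaker rise, stronger rise, weaker fall and stronger fall, array quality weights gave 182, 195, 140, 27, 141 and 48 genes, with the lowest weight, 0.173, for replicate 3 of unstimulated Tlr997. No filter on low values gave 33, 45, 33, 5, 26 and 10, a difference over 1 gave 16, 30, 23, 6, 10 and 7, and limma's treat at 0.5 gave 3, 2, 2, 0, 3 and 0. Without a trend of the variance there were 35 higher, 63 lower, 43 weaker rises, 6 stronger rises and 29 weaker falls. A model of all 18 libraries gave 46 higher, 7 stronger rises and 38 weaker falls.

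With a replicate block within genotype, the counts in this order were 160, 169, 116, 34, 117 and 46, 329 genes in all, of which 176 were among the 177. With the replicate number as a block common to both genotypes, 93 were higher and 122 lower, 215 in all, with 170 of the 177 among them. Deviations of same-numbered libraries correlated at 0.51, 0.29 and 0.51 in Tlr9het and at 0.37, 0.08 and 0.02 in Tlr997, and in Tlr997 only number 1 correlated best with its own number. Summed erythroid markers had the same order of the numbers in both conditions of each genotype, a hint from the data and not from the labels. By the correlations, which the offset removed per gene and number also enters, the numbers were not taken as pairs. Jun and Havcr1, not called without a block, passed the threshold with the common block (limma adjusted p 0.029 and 0.038).

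A stricter filter, robust variance, centred libraries and classes by signs alone left every count within 1.5 times. More genes were lower than higher except without replicate 3 of unstimulated Tlr9het (100 higher, 94 lower) and with treat. Over the 68 named genes that were called, 446 of 1564 alternative values lost the call and 0 changed sign, while the medians of the lists changed sign in 18 of 399. The causes were not tested. Depth limits cannot be stated without counts.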
